A study of Mus musculus with 2 samples.

Results

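The 10 kb bins described here carried the most H3K27ac HiChIP reads, relative to their library, of all bins that anchored a called chromatin interaction in mouse microglia. A bin was a member when its read coverage was at least 2.5 times the constant by which the deposited list of its library divides coverage, a ratio called relative coverage from here on. Of the 34263 anchor bins of both lists, 1114 met this rule. The sham list held 100 of them among 18885 anchors (0.530%), and the day 6 list held 1112 among 32048 anchors (3.47%). In 98 bins the ratio reached 2.5 in both libraries, in 1014 at day 6 only and in 2 in sham only. Relative coverage chose the members, so its level in them is given as a description and is tested nowhere.

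The libraries came from microglia, the resident macrophages of the brain, of wild-type male C57BL/6J mice aged 8 to 24 weeks. The sham group had the surgery without occlusion, and the day 6 group was taken 6 days after the middle cerebral artery had been blocked for 60 minutes and reopened (MCAO), a model of ischemic stroke. From the sham-operated or the ischemic hemisphere, 200000 to 300000 cells with intermediate CD45 and intermediate CD11b were sorted, and each library used 2 µg of antibody and 14 PCR cycles. Each condition had 1 library, so that no difference between conditions has a replicate check, and how many animals gave the cells of a library is not stated.

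Acetylation of lysine 27 on histone H3 marks active promoters and enhancers. HiChIP enriches ligated pairs of DNA segments that carry such a mark, so a bin's coverage depends on how much marked chromatin it holds, and a called interaction is a pair of bins ligated more often than their distance and coverage would give. Wide, strongly acetylated regions lie near genes that define a cell type, and compact ones lie at the promoters of genes that every cell uses. The sorted cells were analysed in bulk, so that more cells with a mark and more of the mark per cell cannot be told apart.

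The sham list held 19061 interactions with 501608 contacts, and the day 6 list 42905 interactions with 1074041 contacts. The median anchor had a coverage of 1152 reads in sham and 739 reads at day 6, and the constants behind the ratio were 1099 and 799. Where a pair of values is given below, sham comes first and day 6 second. All 10 microglial marker genes of a list chosen for the purpose had an anchor in both lists, and the highest relative coverage over each gene ran from 0.760 to 2.19 in sham and from 0.949 to 2.73 at day 6. For comparison, 9417 of all 21887 coding genes had an anchor in sham and 13423 in the longer day 6 list. Of 10 markers of monocytes and border macrophages, 3 had an anchor in sham and 7 at day 6, none above 1.18 in sham or 0.989 at day 6. Of 10 neutrophil markers, 3 and 4 had an anchor, among them Csf3r at 2.36 in sham and 2.69 at day 6. Of 10 lymphocyte markers 4 and 6 had an anchor, of 10 neuronal markers 2 and 4, of 10 astrocyte markers 4 and 6, of 10 oligodendrocyte markers 5 and 5, and of 10 endothelial and pericyte markers 5 and 5. None of the markers of these 5 cell types reached 2.5. The astrocyte gene Gfap had 1.37 in sham and 2.496 at day 6, just under the threshold. The part of such cells in the results below was not tested.

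The sequences upstream of the starts of 6 genes are given as examples from very high bins. They are the 250 bases before the annotated start, 5′ to 3′ on the gene's strand, from the RefSeq promoter table of GRCm38.p6. Rpl19 and Tnfaip3 each have 2 listed starts, of which the one with more CpG is shown. Gna13, Mnt, Klf6 and Rpl19 start in 4 of the 5 bins of highest relative coverage at day 6, and Jun and Tnfaip3 start in very high bins of the stress and NF-kB response groups. They lie at chr11:109362544-109362793 (plus strand, Gna13), chr11:74830674-74830923 (plus, Mnt), chr13:5861239-5861488 (plus, Klf6), chr11:98026460-98026709 (plus, Rpl19), chr4:95052223-95052472 (minus, Jun) and chr10:19015411-19015660 (minus, Tnfaip3). Capitals mark matches, on either strand, to short motifs. The AP-1 motif searched was TGACTCA, the box of the CCAAT-binding factors was the letters CCAAT, and the GC box of Sp/KLF factors was GGGCGG. The core searched for NRF1 was GCATGCG, and the core for the factor YY1 was AAGATGG. The core searched for ETS factors was CGGAAG, and the core for the microglial factor PU.1 was AGGAAGT.
Gna13: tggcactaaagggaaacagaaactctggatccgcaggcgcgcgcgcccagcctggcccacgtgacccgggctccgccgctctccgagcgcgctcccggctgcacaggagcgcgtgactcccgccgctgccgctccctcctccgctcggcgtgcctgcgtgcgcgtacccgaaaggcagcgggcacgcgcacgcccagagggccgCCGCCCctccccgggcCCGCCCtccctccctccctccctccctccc
Mnt: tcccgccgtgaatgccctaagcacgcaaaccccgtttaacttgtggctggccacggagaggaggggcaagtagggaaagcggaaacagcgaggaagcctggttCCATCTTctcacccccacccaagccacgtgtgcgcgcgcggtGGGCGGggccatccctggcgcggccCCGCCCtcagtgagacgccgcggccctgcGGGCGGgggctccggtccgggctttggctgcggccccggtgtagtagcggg
Klf6: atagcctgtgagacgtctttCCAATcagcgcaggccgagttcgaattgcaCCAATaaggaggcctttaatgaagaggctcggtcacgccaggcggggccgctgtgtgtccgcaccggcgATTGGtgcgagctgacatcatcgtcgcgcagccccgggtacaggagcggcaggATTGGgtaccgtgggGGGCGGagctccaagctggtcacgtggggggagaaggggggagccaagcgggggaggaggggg
Rpl19: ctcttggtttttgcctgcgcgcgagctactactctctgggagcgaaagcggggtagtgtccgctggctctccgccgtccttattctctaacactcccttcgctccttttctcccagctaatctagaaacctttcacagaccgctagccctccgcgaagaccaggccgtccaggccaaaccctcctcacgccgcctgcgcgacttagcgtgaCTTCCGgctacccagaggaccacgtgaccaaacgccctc
Jun: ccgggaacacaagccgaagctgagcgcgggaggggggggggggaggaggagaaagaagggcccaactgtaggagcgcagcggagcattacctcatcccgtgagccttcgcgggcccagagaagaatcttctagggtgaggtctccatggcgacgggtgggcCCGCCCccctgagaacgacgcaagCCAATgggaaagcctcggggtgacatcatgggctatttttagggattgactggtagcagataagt
Tnfaip3: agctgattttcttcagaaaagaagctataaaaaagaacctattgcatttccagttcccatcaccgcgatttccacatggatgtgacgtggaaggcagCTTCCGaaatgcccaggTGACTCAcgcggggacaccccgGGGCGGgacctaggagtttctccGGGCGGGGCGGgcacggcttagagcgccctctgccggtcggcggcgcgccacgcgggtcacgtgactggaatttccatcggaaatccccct

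Gna13 had 13.2 CpG per 100 bases, Mnt 10.4, Tnfaip3 8.8, Klf6 and Rpl19 8.4 each, and Jun 6, beside a median of 4 over all 21263 promoters of the table. The starts of Rpl19 and Tnfaip3 that are not shown had 5.6 and 2.4, so that the higher values of these genes follow in part from the choice of start. GC boxes occurred in all of them but that of Rpl19, which held 1 ETS core, and the Klf6 promoter held 4 CCAAT boxes. Over all 997 listed promoters that start in a very high bin (of 806 genes, alternative starts included), the median was 7.2 CpG per 100 bases, against 6 for promoters in other anchors and 1.2 for promoters outside anchors. The share with a GC box was 60.3%, 56.8% and 25.1% in these classes and 42.6% over all promoters. An ETS core stood in 29.5%, 24.4% and 7.73% (17.1% over all), and a YY1 core in 5.72%, 4.29% and 3.78% (4.13% over all). The AP-1 letters ran the other way, with 2.51% in the very high bins, 2.92% in other anchors and 5.49% outside anchors (4.06% over all). The CCAAT box stood in 32.9%, 35.6% and 35.4% (35.4% over all), and the PU.1 core in 8.22%, 7.36% and 7.18% (7.32% over all). The NRF1 core stood in 5.02%, 5.31% and 1.86% (3.73% over all). ETS and PU.1 letters can overlap, and a match of letters is no sign that a factor binds.

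At day 6 the bin of highest relative coverage was that of Gna13, which encodes a G protein alpha subunit that relays signals of cell surface receptors (chr11:109360001-109370000). It had 3361 reads and a relative coverage of 3.06 (2.95 to 3.16, exact Poisson 95% interval) in sham, and 6544 reads and 8.19 (7.99 to 8.39) at day 6. Mnt, a repressor that binds MAX in competition with Myc, followed at 7.75 from 3.74 in sham. Klf6, a zinc finger factor induced early after stimulation, followed at 7.05 from 3.47. These intervals, like all others of coverage and its ratios here, cover counting error only. Reads carry no molecular identifiers and may be copies of 1 molecule, so that the intervals may be too narrow even for that. Intervals of shares count bins or hairpins as separate draws. All 3 bins were above 2.5 in both libraries, and their ratios at day 6 were at least 2-fold those in sham.

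Next at day 6, the bin of Atp6v0c, a membrane subunit of the proton pump of lysosomes, and Amdhd2 stood at 6.77 (3.22 in sham), and that of the ribosomal protein gene Rpl19 and Cacnb1 at 6.52 (2.54). Etf1, the factor that ends translation, and the mitochondrial chaperone gene Hspa9 shared a bin at 6.41 (2.83), and Hspa4, a chaperone of the Hsp110 family, stood at 6.36 (2.80). Aff4, a scaffold of the super elongation complex, had a bin at 6.35 with no anchor in sham. The circadian repressor gene Per1, with Vamp2 in the same bin, stood at 6.40 and had the second rank in sham at 3.76. Of the 10 bins of highest ratio at day 6, the remaining one held no coding gene.

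The order in sham was different. The bin of highest ratio, chr7:90030001-90040000, holds no protein-coding gene and overlaps only the noncoding gene E230029C05Rik. It had 5361 reads and a ratio of 4.88 (4.75 to 5.01) in sham and 5094 reads and 6.38 (6.20 to 6.55) at day 6. After it and Per1 came Mnt at 3.74, Arhgap22, which encodes a GTPase-activating protein, at 3.71 (4.81 at day 6), and the amino acid transporter gene Slc7a8 at 3.54 (4.69). Klf6 (3.47), Nmt1 (3.44 and 5.19), Lhfpl2 (3.41 and 5.21), a gene-less bin of chromosome 10 (3.36 and 5.18) and Syngr1 (3.27 and 5.32) completed the first 10. These 10 bins had, without exception, a higher ratio at day 6. The same 10 were those with the highest lower value of both libraries.

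**Figure D1:**
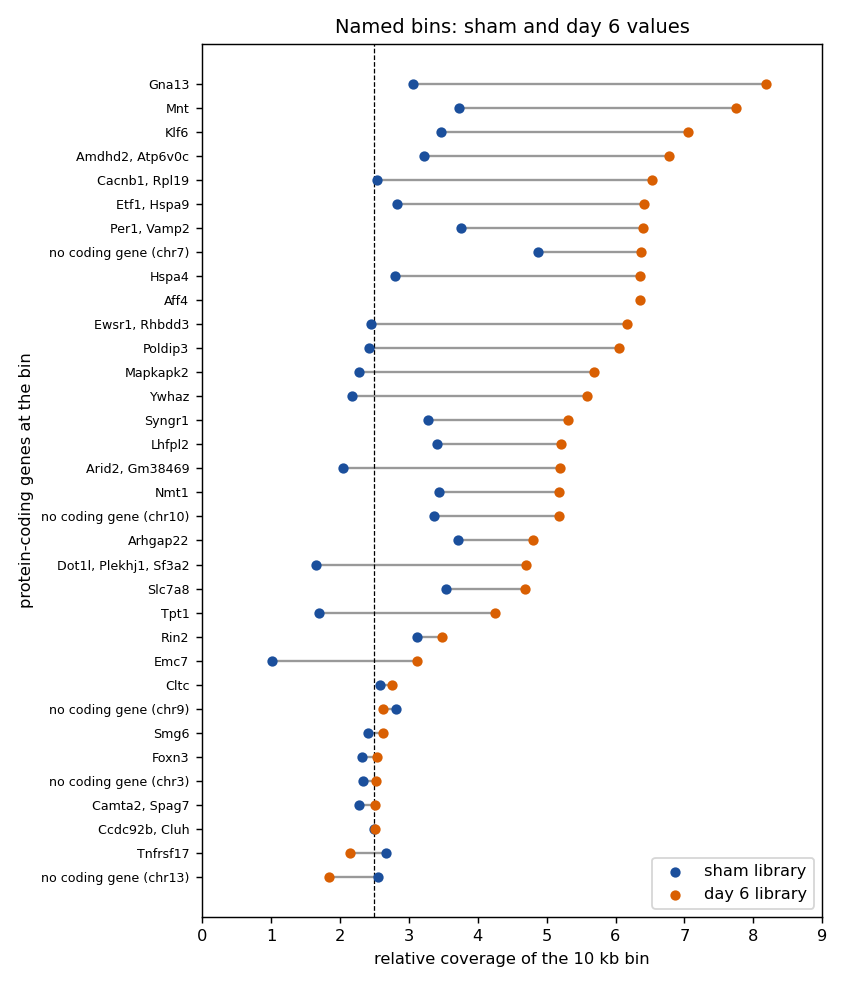
Relative coverage (x axis, a ratio with no unit) of the bins of highest relative coverage or most extreme change, in the sham library (blue) and the day 6 library (orange); the dashed line is the threshold of 2.5. Aff4 has no sham value, and in 3 bins (Tnfrsf17 and gene-less bins of chromosomes 13 and 9) the orange point lies left of the blue one.

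Relative coverage at day 6 and in sham could be compared in the 907 members that anchored interactions in both lists. Their median log2 ratio, day 6 over sham, was 0.68 (interquartile range 0.51 to 0.86), or 1.60-fold, and the range was -0.47 to 1.63. The ratio was above 0 in 904 of 907 bins, beside 46.1% of the 16670 anchors common to both lists, whose median was -0.03. A log2 ratio of at least 1 was reached by 112 members (12.3%), beside 0.774% of all common anchors, and -1 or less by 0 members, beside 0.102%. Since a bin could be a member through its day 6 value, these counts follow in part from the rule and show nothing on their own.

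The 100 bins that reached 2.5 in sham were chosen without their day 6 value. In 97 of them the ratio was higher at day 6, with a median log2 ratio of 0.58 (interquartile range 0.38 to 0.75), or 1.49-fold, and 12 had a log2 ratio of at least 1. The spread of the ratio over anchors was wider at day 6, with an SD of 0.70 on the log2 scale against 0.49 in sham. Before any scaling, the members' coverage in reads had a median log2 ratio of 0.22, and that of all common anchors -0.49, because the day 6 list had fewer reads per anchor.

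**Figure D2:**
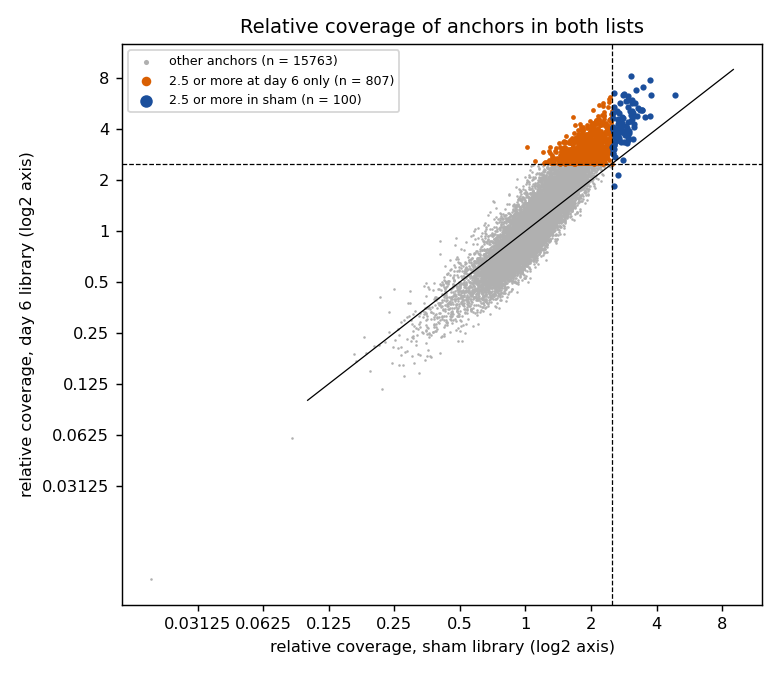
Relative coverage of the 16670 anchors common to both lists in sham (x axis) and at day 6 (y axis), both on log2 axes; dashed lines are the threshold of 2.5 and the solid line is equality. The members reach 2.5 at day 6 only (orange) or in sham (100 bins, blue), and the cloud is steeper than the line, so that bins high in sham lie above it and many low bins below it.

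The members of day 6 were mostly bins already high in sham. The 905 of them with a sham value had a median sham ratio of 1.94, and their median percentile among sham anchors was 97.0. Only 66 of them (7.29%) had a sham ratio under 1.5, and the lowest was 1.01, for Emc7. Across the 907 members with both values, Spearman's rank correlation of the ratios was 0.54, and over all 16670 common anchors 0.89, as a description of 2 libraries.

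Members with a gene start had larger log2 ratios than members without one. Starts are those listed in the RefSeq promoter table, which holds 17492 of 21887 protein-coding genes and none of chromosome 18. The 182 members and 5205 anchors that overlap an unlisted gene and no listed start were left out of this comparison. Of the 519 members with a start and both values, the median log2 ratio was 0.75 (interquartile range 0.61 to 0.92) and 87 (16.8%) reached 1. Of the 243 without a start, the median was 0.50 (0.36 to 0.63) and 3 (1.23%) reached 1. Those 3 were a bin inside Ski, a regulator of TGF-beta signalling (2.30 in sham, 4.76 at day 6), and 2 bins without a coding gene, on chromosome 3 (1.92 and 4.06) and on chromosome 12 (1.59 and 3.31), named after their values were seen.

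The same split was present among bins chosen by sham alone. Of the bins at 2.5 or more in sham, the 30 with a start had a median log2 ratio of 0.74 and 9 reached 1, while the 52 without a start had a median of 0.47 and 0 reached 1. In the class from 2 to 2.5 the medians were 0.69 (151 bins) and 0.30 (168 bins), from 1.5 to 2 they were 0.48 (693 bins) and 0.15 (877 bins), and from 1 to 1.5 they were 0.24 (2275 bins) and -0.10 (4187 bins). From 0.5 to 1 they were -0.02 (1362 bins) and -0.23 (4036 bins), and under 0.5 they were 0.04 (88 bins) and -0.24 (224 bins). In all 6 classes the bins with a start had the higher median. The classes were set by the sham ratio but hold only anchors that the day 6 list has too, 16670 of the 18885 in sham. All 100 bins at 2.5 or more in sham were among these.

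**Figure D3:**
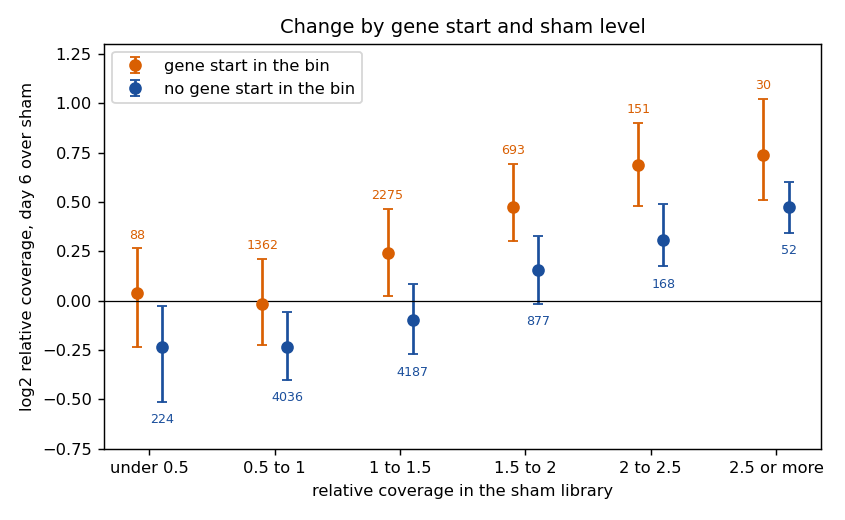
Median log2 ratio of relative coverage, day 6 over sham (y axis), of common anchors in classes of sham relative coverage (x axis), for bins with a listed gene start (orange) and without one (blue); bars are interquartile ranges over bins and the small numbers are bins. The orange point lies above the blue one in each of the 6 classes, and both series go up from the class 0.5 to 1 to the class of 2.5 or more.

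Among bins with a start, the log2 ratio also went with the CpG content of the promoter (the highest value where a bin had several). In the sham class from 1.5 to 2, the median log2 ratio was 0.34 below 3 CpG per 100 bases (102 bins), 0.47 from 3 to 6 (134 bins), 0.50 from 6 to 9 (197 bins) and 0.58 from 9 up (260 bins). From 1 to 1.5 in sham the medians in the same order were 0.06, 0.20, 0.27 and 0.34, and from 2 up they were 0.47, 0.63, 0.74 and 0.79. Of day 6 anchors with a start, 3.75%, 6.31%, 8.24% and 11.5% were very high bins in these CpG classes. In sham the shares were 0.603%, 0.623%, 0.777% and 0.415%, which rest on 6, 7, 11 and 6 bins. The CpG content of bins without a listed promoter was not analysed here.

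Gene starts made up a different share of the members in each library. The members were 0.530% of the anchors in sham and 3.47% at day 6, so that the shares compare unlike cuts of the lists. Of members with a known state, 30 of 82 (36.6%, exact 95% interval 26.2 to 48.0) held a start in sham and 657 of 930 (70.6%, 67.6 to 73.6) at day 6. The share among all anchors was 31.1% in sham and 31.0% at day 6. A protein-coding gene, with 1 kb on each side, overlapped 83 of the 100 sham members and 91.6% of the day 6 members, beside 75.9% and 76.6% of all anchors. At least 2 coding genes met in 11 of the sham members and in 29.0% of the day 6 members, beside 15.1% and 14.6% of anchors. Members inside a gene but without a start (180 bins) lay a median of 16.3 kb from the nearest listed start, and 72 of them lay within 10 kb of one.

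The highest log2 ratio was that of Emc7, a subunit of the membrane protein complex of the endoplasmic reticulum, with 1.01 in sham and 3.13 at day 6, a log2 ratio of 1.63 (1.52 to 1.73, exact binomial interval). The bin shared by Dot1l, the histone H3 lysine methyltransferase, Plekhj1 and the splicing factor gene Sf3a2 had 1.65 and 4.70 (log2 1.51), and it had 1 interaction in sham and 24 at day 6. The start of Sf3a2 lies in this bin, while the listed start of Dot1l lies in a bin that was no member. Gna13 (log2 1.42) and Rpl19 (1.36) followed.

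Below them came Ywhaz, a 14-3-3 adaptor gene, with 2.18 and 5.58, and Arid2, a subunit of a SWI/SNF remodeller, with 2.05 and 5.19. The RNA-binding protein gene Ewsr1 had 2.46 and 6.17, the translationally controlled protein gene Tpt1 1.70 and 4.25, and Poldip3, which acts in mRNA export, 2.42 and 6.05. Mapkapk2, a kinase downstream of p38 that controls cytokine mRNA, had 2.28 and 5.69. The log2 ratios of these 6 ran from 1.32 to 1.36. In each of these 10 bins the interval of the log2 ratio lay above 1.

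Only 3 members had a lower ratio at day 6, all of them among the 100 bins at 2.5 or more in sham. Any other member with both values was higher at day 6 by the rule. A bin without a coding gene at chr13:41880001-41890000, 32.4 kb from Adtrp, had 2802 reads and 2.55 in sham and 1467 reads and 1.84 at day 6, a log2 ratio of -0.47 (-0.57 to -0.38). It had 4 interactions in sham, 2 of them with Adtrp and 1 with the endothelin gene Edn1, and 1 at day 6. The bin of Tnfrsf17, the BCMA receptor of plasma cells, had 2.66 and 2.15 (log2 -0.31). A bin of chromosome 9, 202.3 kb from Tle3, had 2.81 and 2.63 (-0.10), with 8 interactions and 3. Members with almost the same ratio in both libraries were Cluh with Ccdc92b (2745 reads in sham and 2000 at day 6, a log2 ratio of 0.0038), the clathrin heavy chain gene Cltc (2.58 and 2.75) and the GTPase regulator gene Rin2 (3.12 and 3.48). None of the 10 members of smallest log2 ratio reached a ratio of 3.5 at day 6.

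In 207 members, 139 of them with a listed start, the sham list had no anchor, so that no sham value is known. This does not say that the bin lacked reads in sham, only that no interaction of it was called. Their relative coverage at day 6 had a median of 2.95, beside 3.00 in the members with both values, and they had a median of 4 interactions against 7. After Aff4 (6.35) the highest were the bins of Adipor1, an adiponectin receptor, with Cyb5r1 (5.84), of the Golgi GTPase gene Arf1 (5.09), of the diacylglycerol kinase gene Dgkd (4.98) and a gene-less bin of chromosome 11 (4.85). The Aff4 bin had 8 interactions, 1 of them with a bin of Hspa4 60 kb away, next to the very high one, and another with Tnip1, an NF-kB inhibitor gene, at 1600 kb.

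Genes were grouped by lists, and a gene was counted when any bin over it was very high. Over all 13423 coding genes with an anchor at day 6, 9.80% lay at a very high bin, and over 9417 in sham 0.903%. Long genes cover more bins, and genes of a bin share its value. The median log2 ratio over all 4599 bins with a listed start and both values was 0.22, and the medians below are over start bins of a list in the same way.

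Among the transcription factors of microglia, 11 of 30 genes lay at a very high bin at day 6 and 3 in sham. Spi1 encodes PU.1, the factor that microglia depend on, and its bin went from 3.09 in sham to 5.93 at day 6, with 5 interactions and 11. Mef2a, a factor of the microglial enhancer programme, had its start bin at 2.97 and 5.43 with 10 and 21 interactions. Etv6, the third gene in sham, stood at 2.62 and 3.96. At day 6 they were joined by Mef2c (3.16), Runx1 (2.98), Ets2 (2.91), Fli1 (3.70), the oxidative stress regulator gene Nfe2l2 (3.50), the liver X receptor gene Nr1h3 (2.84), Stat3 (3.103) and Yy1 (4.64). Stat3 and Yy1 had no anchor in sham at these bins. The median log2 ratio of the 24 start bins of this list was 0.25, and 1 reached 1 (Ets2, 1.17).

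Of the homeostatic microglial genes, 10 of 29 lay at a very high bin at day 6. P2ry12, the ADP receptor that steers microglial processes, had 2.19 and 2.73 (log2 0.32), with 6 interactions and 5. Tyrobp, the adaptor of TREM2, had 2.20 and 2.89, Adgrg1 2.32 and 2.94 and Entpd1, an ectonucleotidase gene, 2.28 and 2.56. C1qa and C1qc share a bin at 1.97 and 3.08, and Aif1, which encodes Iba1, had 2.15 and 2.95. The largest value was that of the lipid enzyme gene Lpcat2 (2.64 and 5.08), which was also the only one of this list at 2.5 in sham. Sparc (3.25) and Ltc4s (2.83) had no sham anchor at their bin. The median over the 17 start bins was 0.24, and 0 reached 1.

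Of the AP-1 and immediate early list, 10 of 31 lay at a very high bin at day 6, and the median log2 ratio of its 21 start bins was 0.66. Jun, a subunit of AP-1, had 2.71 and 5.71 with 13 interactions in both lists, and Klf6 is given above. Dusp6, a phosphatase that limits ERK, had 2.29 and 5.03, with 13 and 16 interactions. Fosl2, another AP-1 subunit, had 1.04 and 2.14 (log2 1.04) and so stayed below the threshold. Ier5 (2.52 and 4.96), Zfp36, which destabilises cytokine mRNA (2.43 and 4.56), Btg1 (2.31 and 4.31), Junb (2.01 and 3.49), Nr4a3 (1.81 and 3.01), Atf3 (1.84 and 2.87) and Dusp1 (2.06 and 2.69) had smaller log2 ratios. Egr2 fell just short of the threshold, with 1.54 in sham and 1996 reads, 2 under the lowest member, at day 6.

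The NF-kB and inflammatory list had 11 of 35 genes at a very high bin at day 6 and a median of 0.67 over 18 start bins. Tnfaip3, which encodes the NF-kB inhibitor A20, had 2.28 and 5.46 with 4 and 15 interactions, Nfkb2 had 2.38 and 5.38 with 6 and 18, and the subunit gene Rela had 1.82 and 3.71 with 4 and 21. These 3 start bins reached a log2 ratio of 1. The activation marker gene Cd83, at 2.56 in sham and 3.85 at day 6, was the only gene of the list at 2.5 in sham. Cd14 (2.38 and 3.91), Nfkb1 (1.72 and 3.04), Nfkbid (2.02 and 2.85), Birc3 (1.61 and 2.68), Icam1 (1.59 and 2.60) and Relb (1.61 and 2.54) were also members, and Tlr2 (3.17) had no sham anchor there. Nfkbid lies in the bin next to that of Tyrobp.

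Genes of protein folding and translation were the list with the largest share, 13 of 24 at day 6 and 1 in sham. Their 13 start bins had a median log2 ratio of 0.60, and Tpt1 (1.33) and the initiation factor gene Eif4a2 (1.42 and 3.30, log2 1.21) reached 1. The chaperone genes Canx (4.30, no sham anchor there), Hspa8 (1.76 and 3.37), Dnajb1 (3.07, no sham anchor there) and Hsp90ab1 (1.78 and 2.82) were members with Hspa9, and so were Atf4, the factor of the integrated stress response (1.81 and 3.14), and Eif4a1 (2.18 and 3.32). Of cytosolic ribosomal protein genes, 18 of 71 lay at a very high bin at day 6 and 1 in sham, Rpl19, with a median of 0.45 over 40 start bins. Rpl12 (2.42 and 4.53), Rps6 (1.53 and 3.37) and Rps14 (1.52 and 3.37) were the highest at day 6 after Rpl19. The name pattern also took in Rpl3l, a muscle paralogue that shares its bin with Rps2.

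Replication-dependent histone genes gave 17 of 56, but these lay in only 6 bins of the clusters on chromosomes 13 and 3, with day 6 ratios of 3.07 to 3.74. The median of the 22 start bins was 0.40. Of actin and adhesion genes 8 of 30 were members, among them Arpc2, a subunit of the Arp2/3 complex (1.75 and 3.73). Of lysosome and lipid genes 6 of 22 were members, with Npc2, a cholesterol carrier of lysosomes (2.72 and 3.95), beside Atp6v0c, while Plin2, which coats lipid droplets, had 1.09 and 2.44 (log2 1.16) and stayed just below 2.5. Of chromatin genes 6 of 28 were members, with the H3K27 demethylase gene Kdm6b at 2.89 and 5.87.

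Of genes of disease-associated and reparative microglia, 3 of 27 were at a very high bin at day 6 (11.1%): Axl, a receptor for dying cells (2.34 and 4.36), Ctsb (2.62 and 3.73) and Ctsz (2.00 and 3.01). Of interferon response genes 2 of 22 were (9.09%), Irf2 and Socs3, and of glycolysis and hypoxia genes 2 of 20 (10%), Aldoa and Pfkfb3. These 3 shares were near the 9.80% of all coding genes. Genes named Zfp, mostly zinc finger factors, had 14 of 301 (4.65%), below that share, and the highest of them was Zfp36, an RNA-binding protein gene.

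The 94 members without a coding gene lay a median of 25.3 kb from the nearest one, and 44 of them overlapped a noncoding RNA gene. Where both lists gave a value (87 bins), their median log2 ratio was 0.54, beside 0.70 for the 820 with a gene. They had more contacts, with medians of 7 called interactions and 266.5 contacts at day 6 against 6 and 192.5. In sham, the 87 without a gene that the list held as anchors, at any ratio, had a median of 4 interactions. The 820 with a gene had a median of 2.

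The chromosome 7 bin had 10 and 14 interactions, and 8 and 9 of these reached bins of Picalm, a clathrin adaptor gene tied to Alzheimer's disease risk, 90 kb to 180 kb away, with 584 and 556 contacts. The nearest coding gene, Eed, lies 49 kb away and was not among its partners. The gene-less bin of chromosome 10 (3.36 and 5.18), 44.6 kb from Tnfaip3, had no called contact with that gene in sham and 2 interactions with 224 contacts at day 6. Its interactions with Ifngr1 (18 contacts) and Map3k5 (12 contacts) were called in sham only. A bin of chromosome 2 (3.11 and 4.77), 79.6 kb from Cebpb, a factor of inflammatory macrophages, contacted it in both lists with 84 and 101 contacts.

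Other gene-less bins met the same gene in both lists or in 1 of them. The bin of chromosome 17 (3.17 and 5.68) met Eml4 in 3 interactions in sham and 5 at day 6. The bin of chromosome 9 at 3.24 and 4.81, 2.6 kb from Plekho2, met that gene in 3 and 3 interactions with 437 and 415 contacts. A bin of chromosome 10 (2.76 and 4.14) met the antiproliferative gene Btg1, the nearest coding gene at 237 kb, in 2 and 2 interactions. The bin of chromosome 9 beside the chemokine receptor genes (2.23 and 3.88) had 13 and 22 interactions, with Ccr2, Ccr3 and Ccr1l1 among its partners in both lists, and its contact with Ccr1 was called in sham only. A bin of chromosome 18 (3.01 and 5.13), 8.3 kb from Cxxc5, had 1 interaction with that gene in sham, with 55 contacts, and 0 at day 6.

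Runs of adjacent members were short. The 1114 bins formed 78 runs and 948 lone bins, and 166 bins (14.9%, exact 95% interval 12.9 to 17.1) lay in a run. Of the runs, 69 had 2 bins, 8 had 3 and 1 had 4, while the anchors of all levels formed runs of up to 17 bins in sham and 22 at day 6. In sham alone there were 5 runs of 2 bins. In 53 of the 78 runs a single coding gene overlapped every bin, and 7 runs had no coding gene. Bins in runs held a listed start less often than lone bins, 54 of 130 (41.5%) against 604 of 802 (75.3%). In a run over 1 gene a single start falls in only 1 of the bins, so that a lower share per bin is in part built in.

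The longest run, 40 kb at chr11:70430001-70470000, covered Arrb2, a beta-arrestin gene, and Cxcl16, Med11 and Zmynd15. Its 4 bins had ratios of 2.23, 2.21, 2.19 and 1.77 in sham and 3.34, 3.103, 3.47 and 2.56 at day 6, so that all of it was below the threshold in sham. The run of chromosome 7 around the top sham bin had 2.60, 4.88 and 2.34 in sham and 3.45, 6.38 and 3.38 at day 6. Sqstm1, which encodes the autophagy receptor p62, formed a run with Mgat4b and Ltc4s at 3.68, 4.99 and 2.83 at day 6, of which only the middle bin had a sham value (2.68). Extl3 alone spanned 3 bins (1.96, 2.31 and 2.10 in sham, 3.77, 3.60 and 3.03 at day 6), and the run of Cacna1s and Kif21b had 4.08, 2.78 and 3.42 at day 6.

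The neighbouring bins over Spi1 had 2.17 and 3.09 in sham and 3.20 and 5.93 at day 6, those over Mnt 2.91 and 3.74, then 3.73 and 7.75. Cflar, an inhibitor of caspase-8, had a level pair at day 6, 4.61 and 4.72, of which the bin with its start had no anchor in sham. The next bins 10 kb away that were anchors had a median ratio of 1.46 and 1.62 in sham and 1.31 and 1.35 at day 6, and at 100 kb it was 1.20 and 1.21 in sham and 1.07 and 1.07 at day 6. Anchors at 10 kb from other anchors had medians of 1.08 and 1.09 in sham and 0.995 and 0.998 at day 6.

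Very high bins anchored more interactions than other anchors. In sham they had a median of 3 interactions (others 1) and in the day 6 list 6 (others 2). At least 5 interactions were held by 37 of 100 members in sham, beside 6.86% of all anchors, and by 776 of 1112 (69.8%) at day 6, beside 14.5%. Of the 907 members with both values, 796 had more interactions at day 6, beside 58.9% of common anchors, and 50 had fewer, beside 15.8%. The day 6 list held more interactions in all, and cut to the length of the sham list it gave a median of 3 per member, the same as sham. The contacts of members exceeded the caller's expected count by less than those of other anchors, with medians of 2.98 against 4.12 in sham and 3.37 against 4.19 at day 6.

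**Figure D4:**
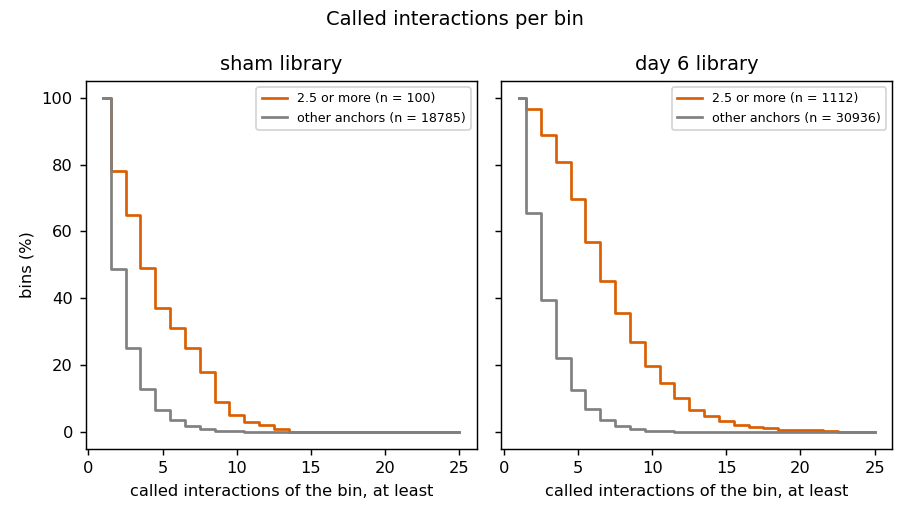
Share of bins (y axis, percent) with at least a given number of called interactions (x axis) in the sham list (left) and the day 6 list (right), for bins at 2.5 or more (orange) and other anchors (grey). From 2 to 12 interactions the orange line lies above the grey one in both lists, at 37% against 6.70% for 5 interactions in sham and at 69.8% against 12.5% at day 6.

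The members with most interactions at day 6 were the Dot1l bin (24 interactions), the chromosome 9 bin of the chemokine receptors (22), and the bins of Mef2a, Rela, Etf1 and Irf2bp2 (21 each). In sham they were that chromosome 9 bin, Dusp6 and Jun (13 each), and Tmigd3, a gene-less bin of chromosome 5 and another Mef2a bin (12 each), the last with 2.08 and 2.72 in relative coverage. The bin of Tmigd3 had 10 interactions at day 6, fewer than in sham. Per1, with the second highest ratio in sham, had 1 interaction there and 6 at day 6, so that high coverage did not always come with many interactions. Over the members, Spearman's rank correlation of relative coverage and number of interactions was 0.20 in sham (907 bins) and 0.33 at day 6 (1114 bins).

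Interactions with an end at a member (of the same list) were 421 in sham (2.21%) and 7062 at day 6 (16.5%, with 22.5% of the contacts). Only 2 in sham and 357 at day 6 joined 2 members. The lists held 100 and 1112 members, so that these counts and shares compare sets of unlike size. Counting the interactions with any of the 1114 bins, 1175 were called in both lists, which is 42.4% of those 2774 in sham and 16.6% of those 7068 at day 6. Over all interactions the shares were 24.6% and 10.9%. Contacts of the shared interactions with a member had a median log2 ratio of 0.15, day 6 over sham, and those of all shared interactions 0. Of the 1114 bins, 1112 reached the threshold at day 6, and all 1114 anchored an interaction in the day 6 list. Of the 18885 sham anchors, 16670 did so. The higher shares and contact ratio of interactions with a member therefore follow in part from the rule and show nothing on their own.

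Hairpins of miRNAs, which are short RNAs that repress target mRNAs through bases 2 to 8, lay in some members. Of 1005 mouse hairpins in the RefSeq table, 372 lay in an anchor and 36 of these (9.68%, exact 95% interval 6.87 to 13.1) in 27 very high bins. Counted by bin, 3.47% of all day 6 anchors were very high, and 7.80% of day 6 anchors with a listed coding gene start. Of anchored coding genes 9.80% lay at such a bin at day 6, but a gene counts there through any of its bins. Several hairpins can share a bin, and the difference between these shares was not tested. The mature sequences below are a choice from those in these bins, with the seed in capitals. Among those not shown are miR-200c-3p, miR-141-3p and miR-219a-5p. The first 3 come from 1 cluster at chr8:84208563-84208896 (plus strand), in the bin of Zswim4 with ratios of 2.36 in sham and 3.45 at day 6. miR-142a-3p lies at chr11:87756903-87756925 (plus), miR-21a-5p at chr11:86584120-86584141 (minus), and miR-22-3p at chr11:75463772-75463793 (plus). miR-195a-5p and miR-497a-5p lie at chr11:70235062-70235082 and chr11:70234730-70234751 (both plus).
miR-23a-3p: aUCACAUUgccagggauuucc
miR-27a-3p: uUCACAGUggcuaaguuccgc
miR-24-3p: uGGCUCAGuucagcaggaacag
miR-142a-3p: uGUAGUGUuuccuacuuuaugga
miR-21a-5p: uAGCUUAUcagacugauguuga
miR-22-3p: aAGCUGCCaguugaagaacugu
miR-195a-5p: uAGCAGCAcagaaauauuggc
miR-497a-5p: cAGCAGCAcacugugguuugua

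Of these, only miR-195a-5p and miR-497a-5p share a seed. Their bin had 1.79 and 3.14. The bin of miR-142a, a miRNA of blood cells, had 2.13 and 3.08, and that of miR-21a, which lies in the Vmp1 gene, 1.71 and 2.85. miR-22 lay in a bin at 3.51 with no sham anchor. The Zswim4 bin had 1 interaction in sham and 13 at day 6, while the miR-142a bin had 1 and 2. The bins cover 10 kb, so that these values belong to the region and not to the hairpin, and the levels of the miRNAs were not measured.

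The members were unevenly spread over chromosomes. Chromosome 11 held 167 of them (15.0%) with 6.91% of the anchors, and chromosome 1 held 116 (10.4%) with 6.16%. As a share of a chromosome's anchors, members made up 7.06% on chromosome 11 and 5.50% on chromosome 1, and 1.58% on chromosome 6. Chromosome X had 1 member in 714 anchors and chromosome Y 0 in 8. The typical level of a chromosome moved with this. The median relative coverage of all anchors was 1.27 in sham and 1.19 at day 6 on chromosome 11 and 0.951 and 0.811 on chromosome 8, while on chromosome X, of which males have a single copy, it was 0.455 and 0.401.

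Dividing coverage by the median of the anchors of the same chromosome, an alternative chosen after seeing the data, gave 1418 very high bins, of which 1012 were members under the rule. Their share was then 3.93% of anchors on chromosome 11, within a range of 3.22% to 5.27% over the autosomes, and chromosome X had 37. The 100 bins of sham became 51. The order of chromosomes differed between these scalings. Chromosomes 11 and 1 also held the most members with no sham anchor, 58 and 33 of 207.

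**Figure D5:**
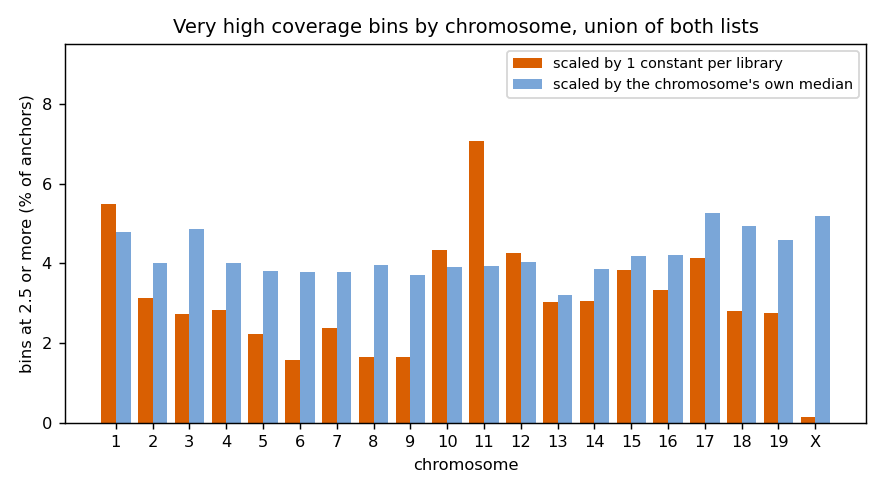
Very high bins as a percent of a chromosome's anchors (y axis, union of both lists) by chromosome (x axis), with coverage divided by 1 constant per library (orange) or by the median of the chromosome's own anchors (light blue). Chromosome 11 leads at 7.06% in orange and lies at 3.93% in light blue, and chromosome X goes from 0.140% to 5.18%.

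The threshold cuts a continuous range, and the count in sham depended on the scaling, with 61 bins in place of 100 when coverage was divided by the median of the common anchors. In sham the members just above it were Tgfbr2 with 2757 reads, Snx29 with 2759 and Plxnb2 with 2760, and just below it were Ehd1 with Cdc42bpg at 2748 reads, Cluh at 2745 and Lrrfip1 at 2736. The bin of Lrrfip1 stood at 5.14 at day 6, higher than those of Tgfbr2 (3.15), Snx29 (3.14) and Plxnb2 (4.02). At day 6 the members just above were the bin of Tmbim1, Gpbar1, Pnkd and Aamp with 1998 reads, that of the immune receptor gene Cd84 with 1998, and that of the cell cycle inhibitor gene Cdkn1a with 1999. Just below were Egr2 with 1996 reads, the splicing factor gene Srsf5 with 1995 and a gene-less bin with 1994. A coverage at the threshold has a 95% counting interval of about 3.75% in sham and 4.41% at day 6 on either side, so that bins on its sides cannot be told apart by depth.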

How the data were processed

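H3K27ac HiChIP libraries of sorted microglia, 1 of sham and 1 of day 6, were available as lists of called interactions between 10 kb bins. Per the submitters' processing notes, HiC-Pro 3.1.0 was used with mm10 (GRCm38). No source used here names the interaction caller (the headers match the layout of FitHiChIP output). The deposited lists give, for each interaction, the contact count and the read count (coverage) of both bins, the expected count of the caller, the ratio of each bin's coverage to a constant of the library (relative coverage), and a q-value of at most 0.001. A bin has a value in a list only where it anchors a called interaction there.

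Bins with a ratio of at least 2.5 in either list were taken as members. Genes and starts came from RefSeq tables of GRCm38.p6 and were assigned with 1 kb on each side. The log2 ratio is day 6 over sham relative coverage. With 1 library per condition there was no test: a log2 ratio of at least 1 was the rule of size. Coverages carry exact Poisson 95% intervals, for counting error only. Shares carry exact Clopper-Pearson 95% intervals, which count bins or hairpins as separate draws. Bins are not replicates. Python 3.11.15, pandas 2.3.3, numpy 2.4.6, scipy 1.17.1 and matplotlib 3.10.9 were used, and the calculations were tested on simulated data. Alternatives changed the threshold, the scaling, the gene assignment, the gap within runs, the limit of the log2 ratio, and the q-value or length of the list.

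The bins, gene lists and comparisons were chosen with earlier results of these data known. Bins named in the text were the 10 highest in sham, at day 6 and in both, the 10 of highest and of lowest log2 ratio, the 5 with most interactions in each list (ties also named), the 5 highest with an anchor at day 6 only, bins without a coding gene of highest ratio, runs of most bins, and members of the gene lists. Others were named after their values were seen.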

Additional observations from a re-analysis of the deposited data

How the results depend on the processing

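Each comparison had 1 library per condition, so no alternative could leave out a replicate. No paired analysis was possible because the groups share only 1 replicate number. Of 48 planned comparisons with an alternative, 23 stayed within the limit set for a move. Some of these could not move, since cutting the day 6 list leaves the sham values unchanged. The median log2 ratio, the only one of these values that could change sign, stayed above 0 in each alternative run. Except in the run on sham bins, bins could be members through their day 6 value. In those runs the sign follows in part from the rule and is no check of it. A threshold of 2.0 gave 2475 bins (476 in sham, 2466 at day 6, 467 in both), and 3.0 gave 546 (26, 546 and 26). Scaling by the median of the common anchors gave 61 bins in sham and 61 in both, and the top 1% of each list gave 374 (189 and 321). Scaling by the chromosome's median, added after seeing the data, gave 51 in sham and 51 in both. The share with a coding gene, 91.6%, was 69.3% by gene ends only, 89.5% at 2.0 and 83% in sham bins (added). The share in runs, 14.9%, was 20.3% with a gap of 1 bin allowed, 21.5% at 2.0, 9.34% at 3.0 and 10% in sham bins (added). The median log2 ratio, 0.68, was 0.73 by the common anchors' median, 0.56 at 2.0 and 0.78 at 3.0, 0.58 in sham bins and 0.22 without scaling (both added), and the difference in units of each list's SD was 0.60. A log2 limit of 0.58 gave 601 bins in place of 112. The median of 6 interactions per bin at day 6 was 4 at a q under 1e-05, 3 with a day 6 list cut to the length of the sham list, and 8 in sham bins (added). At equal list length the medians were therefore 3 in both lists. Counting error at the threshold was 3.75% in sham and 4.41% at day 6.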
